A study of Homo sapiens with 16 samples.

Results

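The collagen genes were taken as all protein-coding genes of the GENCODE 44 annotation of hg38 whose symbol consists of COL, a number, the letter A and a number, which selected 44 of 20046 protein-coding genes by name alone. H3K27ac ChIP-seq, in which chromatin carrying histone H3 acetylated at lysine 27 is immunoprecipitated and sequenced, had been carried out in MDA-MB-231 and Hs578T, established cell lines from human triple-negative breast cancer (TNBC). Both lines were studied as CRISPR control and as Fn14 KO cells, in the latter of which TNFRSF12A, the gene of the TWEAK receptor Fn14, had been targeted with 2 guides. The edited cells are called clones where the study lists its genotyping primers, and per its methods the KO was checked by western blot and Sanger sequencing. The number of clones per line and what the control cells carried are not given in the sources used here. All groups went through 8 h of serum starvation and were then left untreated or given the cytokine TWEAK at 10 ng/ml for 48 h, renewed after 24 h. Line, genotype and treatment thus gave 8 groups of 2 samples, and the data comprised 16 lists of called peaks. The study's methods describe the replicates of its cell line ChIP-seq as biological, no label ties a list to a culture or a day, and p-values measure the spread between these lists.

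Collagens are proteins of the extracellular matrix whose chains wind into triple helices, and each COL gene encodes 1 chain. Fibrillar collagens form the cables of connective tissue, network-forming collagens build sheets such as the basement membrane, fibril-associated collagens with interrupted helices (FACITs) decorate the fibrils, and transmembrane collagens and multiplexins sit at or near the cell surface. In breast tumours the collagen matrix is made by stromal fibroblasts and, in part, by the cancer cells, and mesenchymal-type TNBC lines such as these are known to express several collagen genes. H3K27ac marks promoters and enhancers that are active. Because the lists hold peaks and not reads, each gene was described by the length of sequence covered by peaks, in kb, in a window made of the gene body and 50 kb on each side, and in a promoter made of the 2 kb on each side of the annotated gene start. Differences are given for windows on the scale log2(covered kb + 1 kb), which understates the change of thinly covered windows, and for promoters in covered kb. A peak in a window may belong to a neighbouring gene, and the windows of 14 collagen genes overlapped that of another collagen gene.

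The lists held 39544 to 47197 peaks covering 64.2 to 88.9 Mb. TNFRSF12A itself had covered lengths of 8.07 to 11.7 kb in its window and 0.403 to 0.622 kb at its promoter over the 16 lists, KO lists included. H3K27ac peaks cannot show a small deletion, so this checks nothing about the KO. Of the markers of mesenchymal-type breast cancer cells, VIM, AXL, CD44, ZEB1 and FN1 had a peak at a transcript start in all 8 lists of each line, and SPARC in 6 of 8 lists of each. Of the luminal markers, GATA3, KRT8 and EPCAM had such a peak in every list, FOXA1 in 2 MDA-MB-231 lists, and ESR1, PGR and CDH1 in none. Among basal markers EGFR had one in every list and KRT5, KRT14 and KRT17 in none. Of the blood cell markers PTPRC and CD3E had none and CD14 had one in 2 and 4 lists of the lines, while of the endothelial markers PECAM1 had a start peak in all lists and CDH5 in 3 of each line. The lines were hard to tell apart by presence of peaks. A promoter peak present in every MDA-MB-231 list and no Hs578T list was found for 1 of 20046 genes, the reverse for 7, and no collagen gene was among either. Of 55219 consensus regions, that is merged peaks present in at least 2 lists, 84 and 181 (0.152% and 0.328%) were present in all lists of one line and none of the other. The identity of the lines could therefore not be checked from the lists, and they are named as labelled.

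The sequences on which the later results turn are shown first. The central 300 bases are given for the 3 regions with peaks in both TWEAK-treated and in neither untreated control list of both lines (COL16A1, COL27A1 and COL4A2), for the 2 regions with the reverse pattern (COL15A1 and COL5A1), for 2 COL11A1 regions whose peaks were longer with TWEAK, for the region inside COL4A6 that also lies upstream of COL4A5, and for the COL18A1 promoter, where coverage was shorter. The COL4A6 region was chosen after its values had been seen. All are hg38 plus strand, 5′ to 3′, read from the reference genome, except the promoter, which is from RefSeq (GRCh38.p14, plus strand, 250 bases before to 50 after the start). Capitals mark matches, on either strand, to TGANTCA, the core motif of AP-1, or to GGANTTTCC, an NF-kB motif.
COL16A1 region 37.6 kb into the gene, chr1:31666560-31666859: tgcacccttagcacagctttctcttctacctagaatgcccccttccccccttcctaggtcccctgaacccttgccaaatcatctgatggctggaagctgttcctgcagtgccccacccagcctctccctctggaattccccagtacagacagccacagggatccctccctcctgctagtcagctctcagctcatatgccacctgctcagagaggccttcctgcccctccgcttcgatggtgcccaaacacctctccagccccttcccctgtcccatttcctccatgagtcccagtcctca
COL27A1 region 130 kb into the gene, chr9:114285497-114285796: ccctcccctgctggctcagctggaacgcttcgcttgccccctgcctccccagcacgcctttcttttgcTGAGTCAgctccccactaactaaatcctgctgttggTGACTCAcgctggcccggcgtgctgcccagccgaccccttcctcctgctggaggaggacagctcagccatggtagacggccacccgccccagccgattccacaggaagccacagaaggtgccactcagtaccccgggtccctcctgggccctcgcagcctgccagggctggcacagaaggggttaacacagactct
COL4A2 region 66.0 kb into the gene, chr13:110371697-110371996: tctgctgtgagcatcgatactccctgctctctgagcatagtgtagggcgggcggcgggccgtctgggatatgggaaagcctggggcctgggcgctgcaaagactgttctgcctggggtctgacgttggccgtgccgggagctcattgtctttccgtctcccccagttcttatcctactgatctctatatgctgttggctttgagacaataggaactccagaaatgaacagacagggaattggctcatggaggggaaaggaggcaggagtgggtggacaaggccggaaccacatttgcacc
COL15A1 region 28.4 kb into the gene, chr9:98971386-98971685: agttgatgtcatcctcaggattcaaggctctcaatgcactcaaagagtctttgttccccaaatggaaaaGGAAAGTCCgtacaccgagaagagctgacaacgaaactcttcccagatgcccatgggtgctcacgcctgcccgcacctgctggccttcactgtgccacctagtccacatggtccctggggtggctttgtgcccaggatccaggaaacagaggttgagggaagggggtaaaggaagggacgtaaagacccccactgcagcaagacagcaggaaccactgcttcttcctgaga
COL5A1 region at -44.3 kb from the gene start, chr9:134597360-134597659: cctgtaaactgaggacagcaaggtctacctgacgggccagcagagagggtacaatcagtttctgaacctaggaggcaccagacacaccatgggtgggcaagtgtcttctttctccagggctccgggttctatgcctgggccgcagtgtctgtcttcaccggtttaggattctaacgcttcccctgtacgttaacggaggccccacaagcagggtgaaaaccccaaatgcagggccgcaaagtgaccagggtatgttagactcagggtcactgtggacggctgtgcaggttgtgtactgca
COL11A1 region 167 kb into the gene, chr1:102941694-102941993: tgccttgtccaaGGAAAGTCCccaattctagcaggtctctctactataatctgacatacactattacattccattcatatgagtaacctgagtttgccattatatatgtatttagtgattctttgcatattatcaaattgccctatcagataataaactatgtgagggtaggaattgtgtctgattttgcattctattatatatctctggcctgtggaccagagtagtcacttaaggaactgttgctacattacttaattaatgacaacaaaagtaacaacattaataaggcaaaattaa
COL11A1 region 189 kb into the gene, chr1:102919765-102920064: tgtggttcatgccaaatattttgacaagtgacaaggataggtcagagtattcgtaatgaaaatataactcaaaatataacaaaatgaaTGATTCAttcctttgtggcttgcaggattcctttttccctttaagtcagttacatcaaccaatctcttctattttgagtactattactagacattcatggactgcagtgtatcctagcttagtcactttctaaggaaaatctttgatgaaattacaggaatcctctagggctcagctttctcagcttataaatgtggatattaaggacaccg
COL4A6 region 41.9 kb into the gene, chrX:108397417-108397716: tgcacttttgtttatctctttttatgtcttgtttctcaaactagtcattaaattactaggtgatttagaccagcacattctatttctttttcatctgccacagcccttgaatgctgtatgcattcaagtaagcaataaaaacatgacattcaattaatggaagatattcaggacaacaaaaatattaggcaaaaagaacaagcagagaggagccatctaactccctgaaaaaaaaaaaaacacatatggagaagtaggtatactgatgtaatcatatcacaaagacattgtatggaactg
COL18A1 promoter, chr21:45404915-45405214: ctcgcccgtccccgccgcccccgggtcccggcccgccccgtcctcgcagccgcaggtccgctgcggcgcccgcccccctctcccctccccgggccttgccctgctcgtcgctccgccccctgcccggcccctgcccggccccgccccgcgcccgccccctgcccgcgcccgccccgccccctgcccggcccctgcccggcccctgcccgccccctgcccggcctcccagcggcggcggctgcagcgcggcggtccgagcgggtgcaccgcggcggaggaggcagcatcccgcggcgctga

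A match to TGANTCA was present in the central 300 bases of 26.0% of all consensus regions and of 25.2% of the 234 consensus regions in collagen windows, and GGANTTTCC in 1.95% and 3.42%. Of all RefSeq promoters of the same length, 7.71% held TGANTCA and 1.64% GGANTTTCC. The COL27A1 region held 2 TGANTCA matches and the COL11A1 region 189 kb into the gene held 1. The COL15A1 region and the COL11A1 region 167 kb into the gene each held 1 GGANTTTCC match, read on the opposite strand. The other sequences shown held neither, which says only that these letters were not in those 300 bases. Such a match is a description of the sequence and not evidence of binding.

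Where the collagen genes carried H3K27ac was examined first, over all 16 lists. Of the 44 windows, 34 (77.3%) held a peak in every list, against 83.5% of all protein-coding genes, and COL6A5, COL9A1, COL19A1 and COL22A1 held none in any list. Promoters were marked less widely, with a peak in every list at 10 of 44 collagen promoters (22.7%), against 52.7% of all genes, and in no list at 27 (61.4%), against 37.8%. When all annotated transcript starts were used, 11 collagen genes (25%) had a start peak in every list, against 57.1% of all genes. In no list had 23 (52.3%) such a peak, against 33.4%. The 10 promoters with a peak in every list were those of the fibrillar genes COL1A1 and COL5A1, the basement membrane genes COL4A1 and COL4A2, COL6A1 of the beaded filament, the anchoring fibril gene COL7A1, COL8A1 of the short-chain networks, the FACIT gene COL12A1, the transmembrane gene COL13A1 and the multiplexin gene COL18A1. The highest deposited fold enrichment over local background at these promoters was found at COL8A1, where the best promoter peak per list ranged from 13.01 to 22.1 with a median of 18.8. It was followed by COL6A1, with a median of 10.6, COL1A1 with 8.204 and COL7A1 with 8.12, and the ranges of all 4 over the lists overlapped with at least one neighbour. The lowest of the 10 was the promoter shared by COL4A1 and COL4A2, genes that start head to head, with a median of 4.34. A promoter peak was present in some lists only at COL27A1 (9 lists), COL9A2 (8 lists), COL5A2 (8 lists, at most 0.246 kb at the edge of the promoter), COL4A5 and COL4A6, which also share a start region (7 lists), COL9A3 (4 lists) and COL6A2 (2 lists). COL1A2, the partner chain of COL1A1, COL3A1, a fibrillar collagen of soft tissues, COL11A1 and COL6A3 had a promoter peak in no list.

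**Figure D1:**
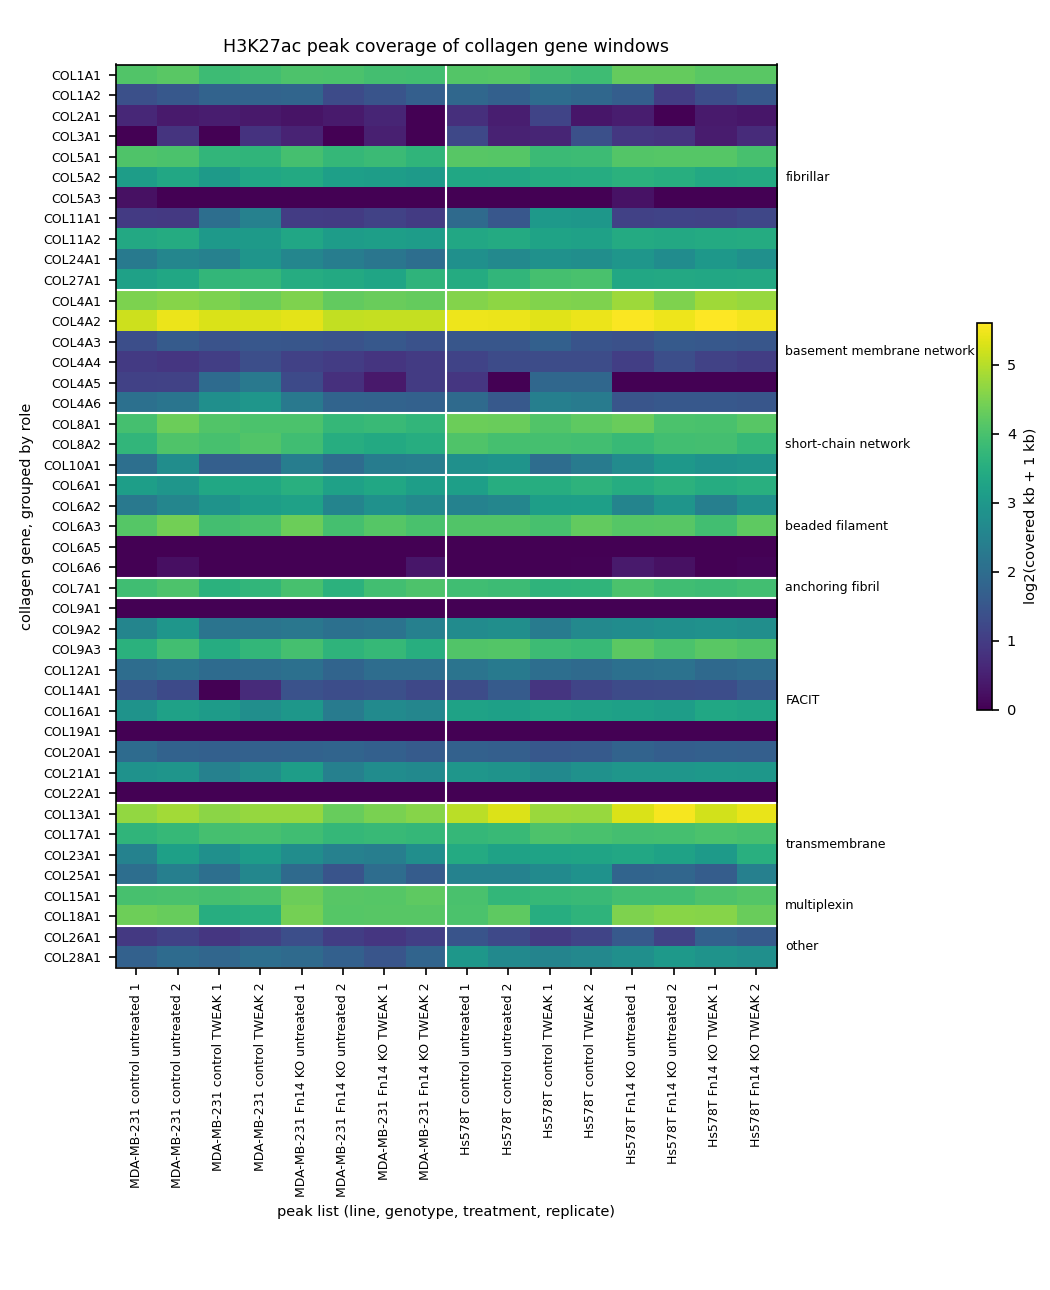
H3K27ac peak coverage of the 44 collagen windows (rows, grouped by the role of the collagen, with white lines between roles) in the 16 peak lists (columns, MDA-MB-231 left and Hs578T right of the white line); colour gives log2(covered kb + 1 kb). COL4A2 and COL13A1 were covered over the greatest length in both lines, and COL6A5, COL9A1, COL19A1 and COL22A1 held no peak in any list.

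The window covered over the greatest length was that of COL4A2, which encodes a chain of the ubiquitous basement membrane collagen IV and lies at chr13:110305812-110513209, plus strand. It held 33.2 to 42.6 kb (median 36.7 kb) in MDA-MB-231 and 39.9 to 47.98 kb (median 43.2 kb) in Hs578T, and its window overlaps that of COL4A1, which held 18.2 to 23.1 kb (median 20.6 kb) in MDA-MB-231 and 21.9 to 27.1 kb (median 23.6 kb) in Hs578T. The window of COL13A1, a transmembrane collagen, held 18.8 to 27.6 kb (median 24.4 kb) in MDA-MB-231 and 25.8 to 45.7 kb (median 37.6 kb) in Hs578T. These 3 windows led in both lines. Next came COL18A1, which encodes a basement membrane collagen that carries endostatin at its end, with 10.3 to 20.6 kb (median 16.8 kb) in MDA-MB-231 and 10.4 to 23.4 kb (median 18.3 kb) in Hs578T. COL6A3, the long chain of the beaded filament, held 14.3 to 20.3 kb (median 15.8 kb) in MDA-MB-231 and 14.1 to 18.2 kb (median 16.3 kb) in Hs578T without a peak at its own annotated start, and COL8A1, which builds short-chain networks, held 11.9 to 19.5 kb (median 14.8 kb) in MDA-MB-231 and 14.9 to 19.6 kb (median 17.4 kb) in Hs578T. In MDA-MB-231 every COL4A2 list lay above every COL13A1 list, whereas in Hs578T these overlapped, and COL13A1, COL4A1 and COL18A1 overlapped with their neighbours in this order in both lines. Window length differs between genes, so that these values are lengths and not densities.

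To examine the response to TWEAK, TWEAK-treated and untreated control cells were compared over both lines with limma, fitted to the 17915 protein-coding genes with a window peak in at least 2 lists, of which 40 were collagen genes. After Benjamini-Hochberg adjustment over all of these genes, coverage rose at 6 collagen windows and fell at 8, and the other 26 did not pass. Of all genes tested, 6.84% rose and 11.1% fell. In these bulk samples, fewer cells carrying the mark and less of it per cell cannot be told apart. The median difference was -0.05 for the collagen windows and -0.05 for all genes. After scaling to equal total covered length, 7 collagen windows rose and 7 fell, where 13.9% and 15.7% of all genes did. The unscaled calls follow. By role, 2 of 6 basement membrane windows rose (COL4A5 and COL4A6) and none fell. Of 11 fibrillar windows, COL11A1 and COL27A1 rose and COL1A1, COL5A1 and COL11A2 fell. COL6A2 rose among 4 tested beaded filament windows and COL17A1 among 4 transmembrane windows. COL9A2 and COL14A1 fell among 7 tested FACIT windows, COL10A1 among 3 short-chain windows, COL18A1 of the 2 multiplexin windows, and the anchoring fibril gene COL7A1 fell as well.

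**Figure D2:**
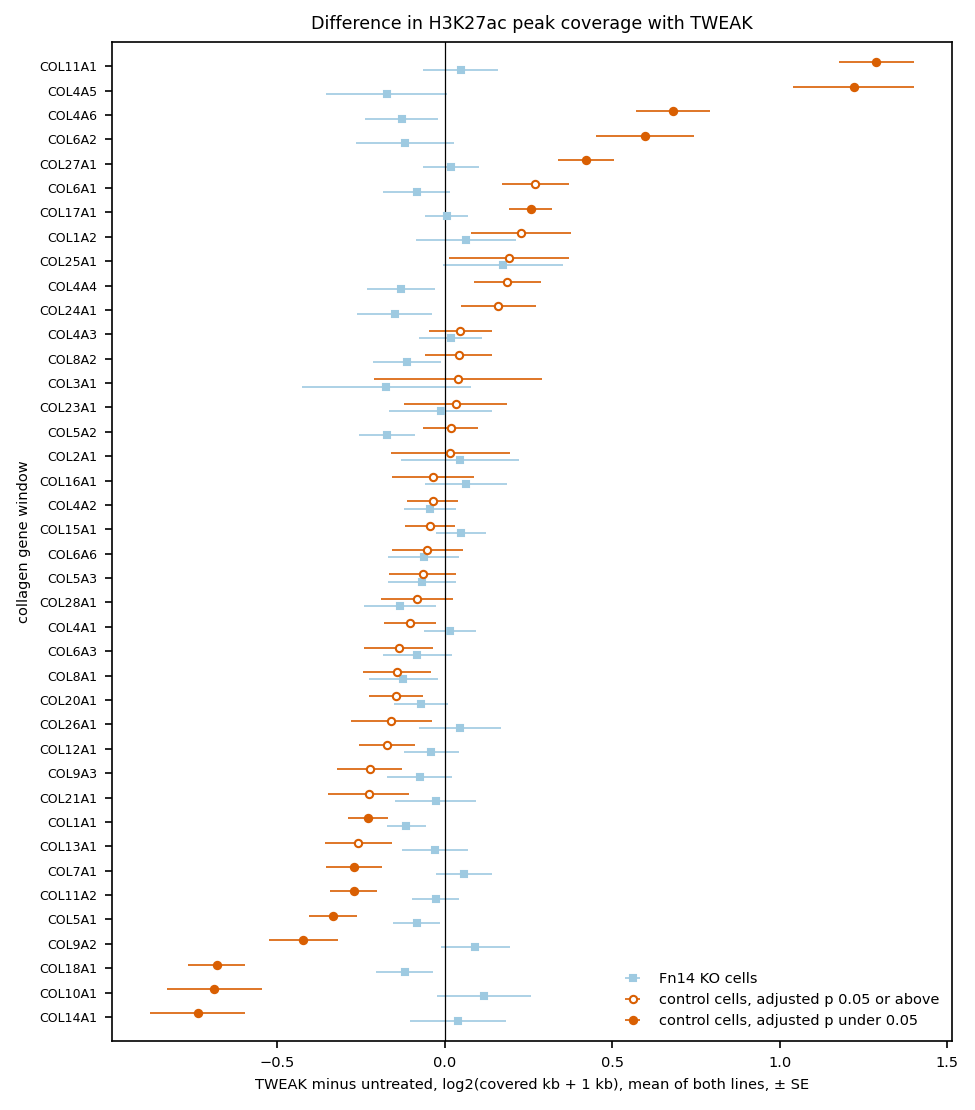
TWEAK minus untreated difference of each of the 40 tested collagen windows on the log2(covered kb + 1 kb) scale (x axis), mean of both lines with limma's SE; orange circles are control cells (filled where the adjusted p was under 0.05) and blue squares Fn14 KO cells. Filled circles lie at both ends, from COL14A1 at -0.74 to COL11A1 at 1.29, while no Fn14 KO value passed.

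The largest increase was at COL11A1, which encodes a chain of the minor fibrillar collagen XI that takes part in starting fibrils and lies at chr1:102876467-103108872, minus strand. In MDA-MB-231, the COL11A1 window held 0.926 and 0.902 kb in untreated control lists, 3.08 and 4.495 kb in TWEAK-treated control lists, 0.989 and 0.959 kb in untreated Fn14 KO lists and 1.14 and 0.973 kb in TWEAK-treated Fn14 KO lists. The same window in Hs578T held 2.86 and 1.86 kb, 7.14 and 6.89 kb, 1.12 and 1.198 kb, and 1.15 and 1.28 kb, in that order of groups. In both lines the TWEAK-treated control lists stood above all other lists, and the 4 untreated and 4 TWEAK-treated control lists did not overlap. The difference was 1.29 ± 0.11 (SE, limma, adjusted p = 1.1e-05). No other protein-coding gene lies in this window, and none of its peaks lay at the annotated start.

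COL4A5 and COL4A6 encode chains that pair in basement membranes of smooth muscle and some epithelia, and they start head to head on the X chromosome (chrX:108439838-108697545, plus strand and chrX:108155607-108439497, minus strand). In MDA-MB-231, the COL4A5 window held 1.12 and 1.15 kb in untreated control lists, 2.92 and 3.79 kb in TWEAK-treated control lists, 1.41 and 0.726 kb in untreated Fn14 KO lists and 0.311 and 0.961 kb in TWEAK-treated Fn14 KO lists. The same window in Hs578T held 0.859 and 0 kb, 2.65 and 2.65 kb, 0 and 0 kb, and 0 and 0 kb, in that order of groups. TWEAK-treated control lists were again the highest in each line, and the Hs578T Fn14 KO lists had no peak in this window at all. The difference was 1.22 ± 0.18 (SE, limma, adjusted p = 0.00048). In control cells the COL4A6 window measured 3.23 and 3.56 against 5.94 and 6.68 kb in MDA-MB-231 and 2.83 and 1.95 against 4.34 and 4.07 kb in Hs578T without and with TWEAK, and in Fn14 KO cells 3.79 and 2.48 against 2.44 and 2.34 kb and 1.77 and 1.93 against 1.91 and 1.84 kb. At COL4A6 it was 0.68 ± 0.11 (SE, limma, adjusted p = 0.00092), and here too the control lists did not overlap. The windows share peaks, so these are not independent observations, and with the gene body alone the COL4A5 difference was -0.04. Their shared promoter held 0.605 and 0.916 against 0.604 and 0.882 kb in MDA-MB-231 control lists. In Hs578T control lists it held 0.53 and 0 against 0 and 0.374 kb. Fn14 KO lists held 0.204 and 0 against 0 and 0 kb in MDA-MB-231 and none in Hs578T. Without TWEAK the genotypes differed there by -0.46 kb, which did not pass (limma, adjusted p = 0.34).

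COL27A1, a fibrillar collagen of cartilage, COL6A2, a chain of the beaded filament collagen VI, and COL17A1, a transmembrane collagen of hemidesmosomes, rose by smaller amounts. For COL27A1, the untreated and TWEAK-treated control lists held 8.27 and 9.13 against 12.2 and 12.3 kb in MDA-MB-231 and 10.03 and 11.9 against 14.5 and 14.9 kb in Hs578T in the window, and the Fn14 KO lists held 10.1 and 9.69 against 8.83 and 11.6 kb and 9.29 and 9.39 against 9.32 and 9.46 kb. Coverage of the COL6A2 window without and with TWEAK was 3.85 and 5.001 against 6.36 and 7.76 kb in MDA-MB-231 and 4.66 and 4.95 against 7.83 and 8.01 kb in Hs578T in control cells, and 8.28 and 4.796 against 6.19 and 5.27 kb and 4.81 and 6.64 against 4.404 and 6.06 kb in Fn14 KO cells. The COL17A1 window held, untreated against TWEAK-treated, 11.7 and 12.6 against 14.6 and 14.8 kb in MDA-MB-231 and 12.3 and 12.99 against 15.6 and 14.9 kb in Hs578T control lists, and 13.9 and 12.3 against 12.8 and 12.3 kb and 14.2 and 14.5 against 15.3 and 14.9 kb in the Fn14 KO lists of these lines. In each of the 3 genes the TWEAK-treated and untreated control lists did not overlap. Among Fn14 KO lists, some of COL6A2 and COL17A1 reached the length seen in TWEAK-treated control lists. The differences were 0.42 ± 0.08 (SE, limma, adjusted p = 0.0036) for COL27A1, 0.60 ± 0.15 (SE, limma, adjusted p = 0.012) for COL6A2 and 0.26 ± 0.06 (SE, limma, adjusted p = 0.013) for COL17A1. The COL6A2 increase lay upstream of the gene, and with the gene body alone its difference was -0.11.

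**Figure D3:**
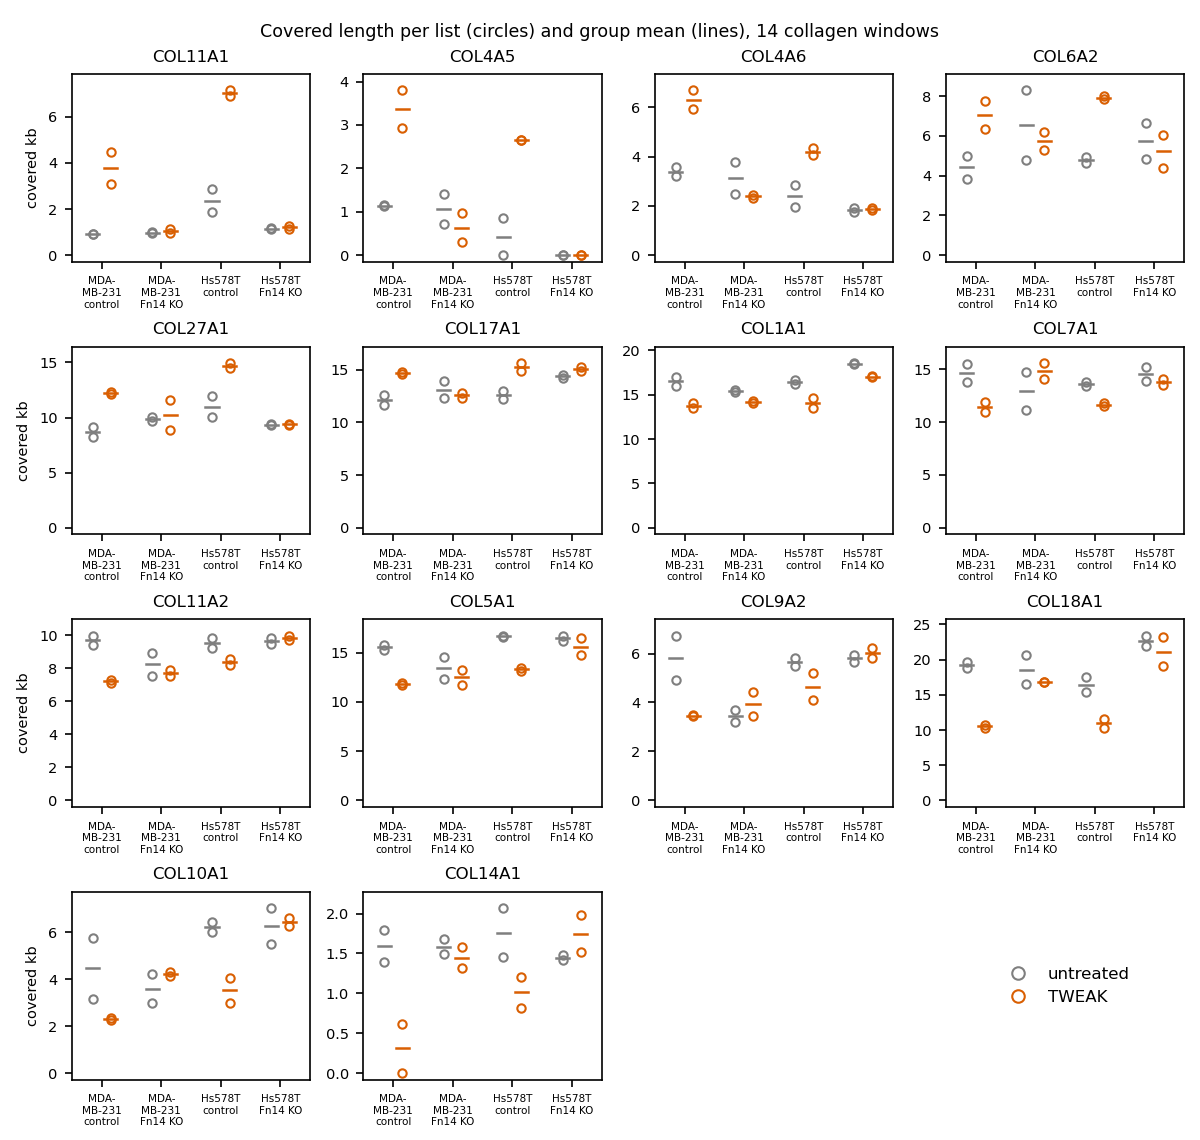
Covered kb per list in the windows of the 14 collagen genes that passed in control cells, by line and genotype; grey circles are untreated and orange circles TWEAK-treated lists, and horizontal lines are means of 2 lists. In COL11A1, COL4A5 and COL4A6 the TWEAK-treated control lists were the highest of their line, and in COL18A1 the lowest.

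Of the windows that fell, COL18A1 (chr21:45405165-45513720, plus strand) held the most sequence. In MDA-MB-231, the COL18A1 window held 19.7 and 18.9 kb in untreated control lists, 10.3 and 10.7 kb in TWEAK-treated control lists, 20.6 and 16.6 kb in untreated Fn14 KO lists and 16.8 and 16.8 kb in TWEAK-treated Fn14 KO lists. The same window in Hs578T held 15.4 and 17.6 kb, 10.4 and 11.6 kb, 21.99 and 23.4 kb, and 23.2 and 19.1 kb, in that order of groups. The TWEAK-treated control lists were the lowest of each line and did not overlap with any other list. The difference was -0.68 ± 0.08 (SE, limma, adjusted p = 0.00015). Weighted by the deposited fold enrichment, it was -0.28 and did not pass (limma, adjusted p = 0.076). The other multiplexin, COL15A1, did not pass, with -0.04 (limma, adjusted p = 0.75). In control cells the COL15A1 window measured 14.7 and 15.1 against 14.6 and 14.9 kb in MDA-MB-231 and 15.02 and 12.2 against 12.6 and 13.04 kb in Hs578T without and with TWEAK, and in Fn14 KO cells 19.4 and 16.8 against 16.6 and 17.8 kb and 14.03 and 14.1 against 15.4 and 16.3 kb.

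Among fibrillar genes, COL5A1, whose chain limits fibril diameter, and COL1A1, the main chain of collagen I, fell. For COL5A1, the untreated and TWEAK-treated control lists held 15.8 and 15.3 against 11.9 and 11.7 kb in MDA-MB-231 and 16.7 and 16.6 against 13.2 and 13.4 kb in Hs578T in the window, and the Fn14 KO lists held 14.5 and 12.3 against 13.3 and 11.7 kb and 16.2 and 16.7 against 16.5 and 14.7 kb. Coverage of the COL1A1 window without and with TWEAK was 16.03 and 17.1 against 13.5 and 14.1 kb in MDA-MB-231 and 16.2 and 16.7 against 14.6 and 13.5 kb in Hs578T in control cells, and 15.5 and 15.3 against 14.3 and 14.1 kb and 18.5 and 18.6 against 16.97 and 17.1 kb in Fn14 KO cells. Untreated and TWEAK-treated control lists did not overlap at either gene, although in MDA-MB-231 1 TWEAK-treated Fn14 KO list of each gene reached the range of, or lay below, the TWEAK-treated control lists. At COL1A1 the TWEAK-treated Fn14 KO lists also lay below the untreated Fn14 KO lists, without overlap within either line. The difference between the genotypes' TWEAK effects, given below, passed at neither gene. The TWEAK differences in control cells were -0.33 ± 0.07 (SE, limma, adjusted p = 0.0054) at COL5A1 and -0.23 ± 0.06 (SE, limma, adjusted p = 0.016) at COL1A1. After scaling the lists to equal total covered length, COL1A1 no longer passed, with -0.18 (limma, adjusted p = 0.051). The window of COL11A2, which encodes another chain of collagen XI, also fell. The COL11A2 window held, untreated against TWEAK-treated, 9.43 and 9.99 against 7.15 and 7.33 kb in MDA-MB-231 and 9.24 and 9.85 against 8.58 and 8.22 kb in Hs578T control lists, and 8.94 and 7.55 against 7.92 and 7.55 kb and 9.85 and 9.47 against 9.71 and 9.98 kb in the Fn14 KO lists of these lines. Its control lists did not overlap, and the difference was -0.27 ± 0.07 (SE, limma, adjusted p = 0.015). Its window also holds HSD17B8, RING1, RXRB and SLC39A7. The 2 regions of this window that were shorter in the fit of single regions given below lay outside COL11A2. They were at 31.4 kb from its start, in the downstream flank, and at -13.7 kb, over HSD17B8, RING1 and SLC39A7. COL11A2 had no promoter peak in any list, and its window call was lost under 6 of 27 alternatives.

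COL10A1, known from hypertrophic cartilage, and the FACIT gene COL14A1 showed the largest decreases on the log2 scale at thinly covered windows. In control cells the COL10A1 window measured 3.17 and 5.76 against 2.26 and 2.34 kb in MDA-MB-231 and 6.0 and 6.44 against 3.001 and 4.03 kb in Hs578T without and with TWEAK, and in Fn14 KO cells 4.22 and 2.96 against 4.15 and 4.29 kb and 5.499 and 7.01 against 6.25 and 6.58 kb. For COL14A1, the untreated and TWEAK-treated control lists held 1.79 and 1.397 against 0 and 0.62 kb in MDA-MB-231 and 1.45 and 2.07 against 0.822 and 1.21 kb in Hs578T in the window, and the Fn14 KO lists held 1.68 and 1.495 against 1.58 and 1.32 kb and 1.42 and 1.48 against 1.52 and 1.98 kb. The lists of COL14A1 did not overlap, whereas those of COL10A1 did between the lines. The differences were -0.69 ± 0.14 (SE, limma, adjusted p = 0.0043) and -0.74 ± 0.14 (SE, limma, adjusted p = 0.0031). Much of this signal lay in or beside other genes. The COL10A1 gene body lies within NT5DC1, and the only consensus region in the COL14A1 window lay downstream of the gene, within MRPL13. With the gene body alone, the COL14A1 difference was 0.12.

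The remaining decreases were in the windows of COL9A2, a FACIT chain of cartilage, and of COL7A1, the anchoring fibril collagen of the skin. Coverage of the COL9A2 window without and with TWEAK was 4.92 and 6.73 against 3.45 and 3.47 kb in MDA-MB-231 and 5.498 and 5.81 against 4.08 and 5.22 kb in Hs578T in control cells, and 3.69 and 3.21 against 3.43 and 4.43 kb and 5.65 and 5.96 against 6.21 and 5.801 kb in Fn14 KO cells. The COL7A1 window held, untreated against TWEAK-treated, 13.8 and 15.5 against 10.98 and 11.9 kb in MDA-MB-231 and 13.8 and 13.4 against 11.5 and 11.8 kb in Hs578T control lists, and 14.8 and 11.2 against 14.03 and 15.6 kb and 15.2 and 13.9 against 13.5 and 14.1 kb in the Fn14 KO lists of these lines. COL9A2 lists overlapped and those of COL7A1 did not. The differences were -0.42 ± 0.10 (SE, limma, adjusted p = 0.012) and -0.27 ± 0.08 (SE, limma, adjusted p = 0.039), and the COL7A1 call was lost under 18 of 28 alternatives. The COL7A1 window holds 6 other protein-coding genes. In the fit of single regions given below, 1 COL9A2 region was shorter, by 0.91 kb (limma, adjusted p = 0.013). It lay 50.1 kb from the COL9A2 start, in the downstream flank and within ZMPSTE24. The COL9A2 promoter did not pass, with -0.54 kb (limma, adjusted p = 0.094).

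In an alternative added after seeing the data, the 2 kb around the starts of all other protein-coding genes were left out of the windows. Of the 36 collagen windows that could be tested, 6 rose and 8 fell with TWEAK in control cells, where 8.42% and 12.0% of all genes did. For the gene body alone, 31 were tested and 3 rose and 5 fell, where 5.46% and 7.37% of all genes did. Within MDA-MB-231 control cells, 9 of 40 windows passed (background 7.09% of all genes): COL11A1, COL4A5, COL4A6 and COL27A1 were higher and COL14A1, COL18A1, COL9A2, COL11A2 and COL5A1 lower. Within Hs578T control cells, 4 passed (background 5.44%), namely COL11A1, COL4A5 and COL4A6, which were higher, and COL18A1, which was lower. The COL11A1 differences were 1.31 ± 0.16 (SE, limma, adjusted p = 0.0003) in MDA-MB-231 and 1.27 ± 0.16 (SE, limma, adjusted p = 0.0007) in Hs578T. Those of COL18A1 were -0.81 ± 0.12 (SE, limma, adjusted p = 0.0014) and -0.55 ± 0.12 (SE, limma, adjusted p = 0.019). Whether the response differed between lines was tested by the interaction of treatment and line. Limma called 0 of 40 collagen windows, against 0.0949% of all genes. Its unadjusted p was under 0.05 at 0 of 40 collagen windows and at 594 of 17915 genes. These within-line counts depended on single lists. Without one of the 4 MDA-MB-231 control lists the MDA-MB-231 count was 2 to 4, and without either untreated MDA-MB-231 Fn14 KO list it was 14. The Hs578T count was 1 without TWEAK list 1 or untreated list 2, 2 without TWEAK list 2 and 10 without either untreated MDA-MB-231 Fn14 KO list.

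The same comparison in Fn14 KO cells asked whether the response was seen without the receptor. No collagen window passed with limma, and 0 of 40 had an unadjusted p under 0.05. Of all genes, 0% passed and 318 of 17915 had an unadjusted p under 0.05. In MDA-MB-231 the median −log10 q of the peaks was 5.79 to 7.69 in Fn14 KO lists and 9.44 to 10.8 in control lists. The untreated Fn14 KO lists of this line covered 81.2 and 64.2 Mb. In Hs578T the medians were 8.24 to 8.61 and 7.86 to 9.04. Whether this affected the comparison was not tested, and a window that did not pass is not shown to be without a response. For COL11A1 the Fn14 KO difference was 0.05, for COL4A5 -0.17, for COL4A6 -0.13 and for COL18A1 -0.12. To test the difference between genotypes itself, the TWEAK effect in control cells minus that in Fn14 KO cells was fitted, and it passed at 6 of 40 collagen windows, against 4.93% of all genes. It was positive at COL4A5 with 1.39 ± 0.25 (SE, limma, adjusted p = 0.0065), at COL11A1 with 1.24 ± 0.16 (SE, limma, adjusted p = 0.00083) and at COL4A6 with 0.81 ± 0.15 (SE, limma, adjusted p = 0.0086). Negative values were found at COL10A1 with -0.81 ± 0.20 (SE, limma, adjusted p = 0.034), at COL14A1 with -0.78 ± 0.20 (SE, limma, adjusted p = 0.042) and at COL18A1 with -0.56 ± 0.12 (SE, limma, adjusted p = 0.016). For COL18A1 weighting by fold enrichment gave -0.10 (limma, adjusted p = 0.76), and COL10A1 and COL14A1 passed under 13 and 9 of 28 alternatives only. The count was 3 without Hs578T control TWEAK list 1 or untreated list 2 and 10 without untreated MDA-MB-231 Fn14 KO list 1.

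Without TWEAK, Fn14 KO and control cells were compared to see whether the genotype alone went with a difference. No collagen window passed with limma, against 0.575% of all genes. Limma's unadjusted p was under 0.05 at 6 of 40 collagen windows and at 1799 of 17915 genes. In TWEAK-treated cells, 11 collagen windows differed between Fn14 KO and control, against 18.6% of all genes. COL4A5, COL11A1, COL4A6, COL25A1, COL27A1 and COL8A2 were lower in Fn14 KO cells, and COL18A1, COL14A1, COL10A1, COL7A1 and COL15A1 higher. This comparison shares its control lists with the TWEAK comparison and is not separate support for it. At COL25A1, a transmembrane collagen, TWEAK-treated Fn14 KO cells differed by -0.61 ± 0.18 (SE, limma, adjusted p = 0.029), while the difference in untreated cells was -0.59 ± 0.18 (SE, limma, adjusted p = 0.2). In control cells the COL25A1 window measured 3.05 and 4.39 against 3.15 and 5.06 kb in MDA-MB-231 and 4.62 and 4.62 against 5.398 and 6.32 kb in Hs578T without and with TWEAK, and in Fn14 KO cells 2.85 and 1.76 against 3.03 and 2.12 kb and 2.48 and 2.59 against 2.13 and 4.47 kb. The short-chain gene COL8A2 differed by -0.34 ± 0.10 (SE, limma, adjusted p = 0.032) with TWEAK. For COL8A2, the untreated and TWEAK-treated control lists held 11.98 and 15.8 against 14.8 and 16.1 kb in MDA-MB-231 and 15.9 and 14.4 against 14.5 and 14.2 kb in Hs578T in the window, and the Fn14 KO lists held 13.8 and 10.2 against 9.56 and 10.3 kb and 12.7 and 14.04 against 14.3 and 12.6 kb. In TWEAK-treated cells the COL25A1 lists of Fn14 KO and control did not overlap within either line, although they did across the lines, and those of COL8A2 overlapped in Hs578T but not in MDA-MB-231. COL15A1 differed by 0.25 ± 0.07 (SE, limma, adjusted p = 0.034).

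At promoters, 17 collagen genes with a promoter peak in at least 2 lists were tested among 12231 genes, in covered kb within 2 kb of the gene start. With TWEAK in control cells, coverage fell at 2 of them, COL18A1 and COL1A1, against 2.12% of all promoters, and rose at none. In MDA-MB-231, the COL18A1 promoter held 2.06 and 1.87 kb in untreated control lists, 0.807 and 0.77 kb in TWEAK-treated control lists, 1.49 and 1.59 kb in untreated Fn14 KO lists and 1.59 and 1.79 kb in TWEAK-treated Fn14 KO lists. The same promoter in Hs578T held 1.204 and 1.67 kb, 0.991 and 0.955 kb, 1.96 and 2.21 kb, and 2.05 and 1.73 kb, in that order of groups. All TWEAK-treated control lists were below all other lists of their line. The difference was -0.82 ± 0.12 kb (SE, limma, adjusted p = 0.0055). Coverage of the COL1A1 promoter without and with TWEAK was 1.84 and 1.79 against 1.17 and 1.31 kb in MDA-MB-231 and 1.77 and 1.903 against 1.66 and 1.31 kb in Hs578T in control cells, and 1.87 and 1.66 against 1.77 and 1.69 kb and 1.805 and 1.93 against 1.96 and 1.87 kb in Fn14 KO cells. The COL1A1 control lists likewise did not overlap, and the difference was -0.47 ± 0.09 kb (SE, limma, adjusted p = 0.027). Among TWEAK-treated cells both promoters were covered over a greater length in Fn14 KO than in control cells, by 0.91 and 0.46 kb (limma, adjusted p = 0.0031 and 0.028), where 1.57% of all promoters were higher. This again uses the same TWEAK-treated control lists. The difference between the genotypes' TWEAK effects passed at 0 of 17 collagen promoters, against 0.965% of all promoters. Limma's unadjusted p was under 0.05 at 5 of 17 collagen promoters and at 1302 of 12231 promoters. The difference was -0.80 ± 0.17 kb at COL18A1 (SE, limma, adjusted p = 0.068) and -0.47 ± 0.13 kb at COL1A1 (SE, limma, adjusted p = 0.18). The COL1A1 promoter call held in 14 of 22 alternatives and that of COL18A1 in 20 of 22. At the COL27A1 promoter, TWEAK-treated control lists were higher by 0.82 ± 0.21 kb, which did not pass (SE, limma, adjusted p = 0.068). In the fit of single regions given below, the same difference passed (limma, adjusted p = 0.015). Untreated MDA-MB-231 lists held 0 and 0 kb at this promoter in control cells and 0.925 and 0.864 kb in Fn14 KO cells. Untreated Hs578T lists held 0 and 0.33 kb and 0 and 0 kb.

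Where in the loci the coverage changed was examined over the 234 consensus regions in collagen windows. Of these, 119 (50.9%) had a peak in every list, against 51.3% of all consensus regions. Gain means here a peak in both TWEAK-treated but in none of the untreated lists of the same cells, loss means the reverse, and neither involves a test. MDA-MB-231 control cells gained 10 regions and lost 16, against 5.58% and 4.49% of all consensus regions. Hs578T control cells gained 7 and lost 11, against 5.09% and 4.65%. Among the Fn14 KO cells, those of MDA-MB-231 gained none and lost 2 (background 0.321% and 1.35%), and those of Hs578T gained 5 and lost none (background 1.05% and 0.829%). In control cells of both lines 3 were gained and 2 lost, against 2.48% and 1.34% of all regions. Of the gained regions, that touching an exon of the FACIT gene COL16A1 (chr1:31666159-31667261) measured 0 and 0 bp in untreated and 701 and 721 bp in TWEAK-treated MDA-MB-231 control lists, and 0 and 0 against 1061 and 1015 bp in Hs578T control lists. It was also gained in Hs578T Fn14 KO cells, with 777 and 785 bp against none, but not in those of MDA-MB-231. The COL4A2 intron region (chr13:110370916-110372777) measured 0 and 0 bp in untreated and 1843 and 1192 bp in TWEAK-treated MDA-MB-231 control lists, and 0 and 0 against 959 and 1320 bp in Hs578T control lists. In all 8 Fn14 KO lists the COL4A2 region was without a peak. The COL27A1 intron region (chr9:114285260-114286034) measured 0 and 0 bp in untreated and 208 and 356 bp in TWEAK-treated MDA-MB-231 control lists, and 0 and 0 against 576 and 270 bp in Hs578T control lists. It had no peak in any Fn14 KO list either.

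The regions lost in control cells of both lines lay in an intron of COL15A1 and upstream of COL5A1. The COL15A1 region (chr9:98971037-98972035) measured 479 and 282 bp in untreated and 0 and 0 bp in TWEAK-treated MDA-MB-231 control lists, and 316 and 654 against 0 and 0 bp in Hs578T control lists. Every Fn14 KO list held it, with 287 to 943 bp. The COL5A1 region (chr9:134596852-134598167) measured 257 and 954 bp in untreated and 0 and 0 bp in TWEAK-treated MDA-MB-231 control lists, and 482 and 532 against 0 and 0 bp in Hs578T control lists. Fn14 KO lists of MDA-MB-231 had no peak there in either treatment, and 3 of 4 Hs578T Fn14 KO lists did. The COL16A1 window held, untreated against TWEAK-treated, 6.43 and 8.25 against 7.42 and 5.87 kb in MDA-MB-231 and 8.37 and 8.13 against 8.801 and 8.39 kb in Hs578T control lists, and 6.86 and 4.04 against 5.46 and 4.95 kb and 8.11 and 7.71 against 9.13 and 8.68 kb in the Fn14 KO lists of these lines. In control cells the COL4A2 window measured 35.3 and 42.6 against 38.1 and 38.6 kb in MDA-MB-231 and 43.1 and 42.7 against 39.9 and 42.5 kb in Hs578T without and with TWEAK, and in Fn14 KO cells 40.7 and 33.2 against 33.8 and 33.6 kb and 47.1 and 43.3 against 47.98 and 44.6 kb. Neither window passed as a whole with TWEAK in control cells, with differences of -0.04 and -0.04 (limma, adjusted p = 0.88 and 0.8).

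**Figure D4:**
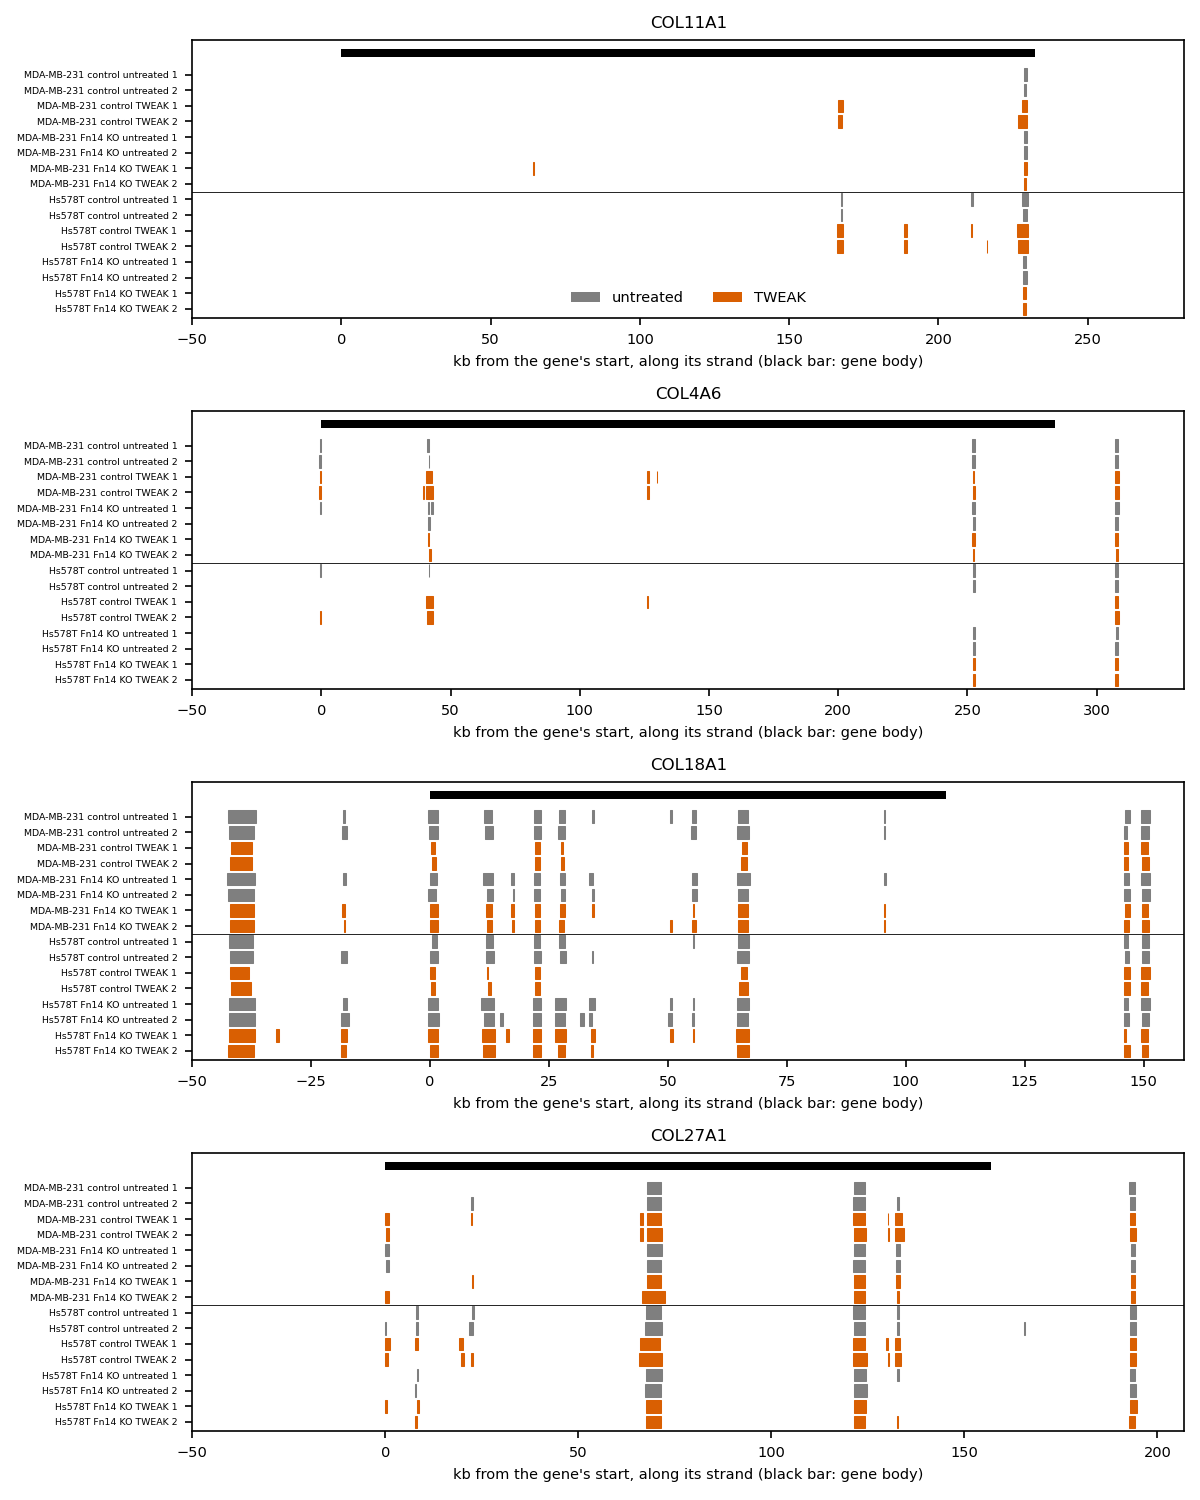
Called H3K27ac peaks of the 16 lists (rows) along the windows of COL11A1, COL4A6, COL18A1 and COL27A1, in kb from the gene start along the gene's strand; the black bar is the gene body, grey bars are peaks of untreated and orange bars of TWEAK-treated lists, drawn to scale with a thin outline. COL11A1 peaks 167 kb into the gene were present in all 4 TWEAK-treated control lists and, shorter, in both untreated Hs578T control lists, but in no Fn14 KO list, and at COL18A1 several intron peaks were shorter or missing in the TWEAK-treated control lists.

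When covered kb was compared region by region with limma over all 55219 consensus regions, an analysis added after seeing the data, 22 of the 234 regions were longer and 35 shorter with TWEAK in control cells, against 10.4% and 10.6% of all regions. All had passed the filter of a peak in at least 2 lists. A region with peaks in TWEAK-treated control lists only could thus come out only as longer. Its call, here and between genotypes, is no separate result. Such were the regions of COL4A2 at 66.0 kb, COL27A1 at 19.9 and 130 kb, COL11A1 at 189 kb, COL24A1 at 84.7 kb and COL4A6 at 126 kb. Of the 74 regions in introns 11 were longer and 11 shorter, and of the 32 touching an exon 5 and 6. In the upstream flank 5 of 56 regions were longer and 9 shorter, and in the downstream flank none of 57 and 6. Of the 15 regions that overlapped the 2 kb on either side of the collagen gene's start, 1 was longer and 3 shorter. The differences ranged from -1.78 to 2.30 kb in control cells and from -0.872 to 0.910 kb in Fn14 KO cells. In Fn14 KO cells limma called 1 region, that of COL16A1, at 0.39 ± 0.05 kb (SE, limma, adjusted p = 0.027), against 0.0833% of all regions. The difference between the genotypes' TWEAK effects passed at 30 of 234 regions, against 10.4%, and the untreated genotypes differed at 4, against 1.69%.

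The COL11A1 increase came from 3 of its 4 regions. The intron region 167 kb into the gene (chr1:102940728-102942960) measured 0 and 0 bp in untreated and 1379 and 1473 bp in TWEAK-treated MDA-MB-231 control lists, and 282 and 381 against 2229 and 2177 bp in Hs578T control lists. Not one Fn14 KO list had a peak there. The region 228 kb into the gene, near its end, (chr1:102878684-102882422) measured 926 and 902 bp in untreated and 1705 and 3022 bp in TWEAK-treated MDA-MB-231 control lists, and 2015 and 1484 against 3739 and 3427 bp in Hs578T control lists. Fn14 KO lists held 878 to 1280 bp there. Their differences were 1.65 ± 0.06 kb (SE, limma, adjusted p = 9.7e-08) and 1.64 ± 0.24 kb (SE, limma, adjusted p = 0.00066). The third, 189 kb into the gene, was present in both TWEAK-treated Hs578T control lists, with 930 and 1032 bp, and in no other list. By the filter it could only come out as longer.

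The COL4A6 window had 2 regions that were longer and 1 that was shorter. The largest difference was in the intron region 41.9 kb into COL4A6, which lies at -42.3 kb from the COL4A5 start and so is in both windows. This region (chrX:108396222-108398912) measured 518 and 237 bp in untreated and 2321 and 2691 bp in TWEAK-treated MDA-MB-231 control lists, and 329 and 0 against 2650 and 2277 bp in Hs578T control lists. The MDA-MB-231 Fn14 KO lists held 311 to 1202 bp and the Hs578T Fn14 KO lists none. The difference was 2.21 ± 0.18 kb (SE, limma, adjusted p = 8.5e-06). The other longer region, in an intron 126 kb into COL4A6, (chrX:108312832-108313633) measured 0 and 0 bp in untreated and 763 and 551 bp in TWEAK-treated MDA-MB-231 control lists, and 0 and 0 against 410 and 0 bp in Hs578T control lists. No Fn14 KO list had a peak there, and it differed by 0.43 ± 0.08 kb (SE, limma, adjusted p = 0.0041). At such a region the SE pools all 8 groups, and groups without a peak add no spread. It can therefore understate the spread between the TWEAK-treated control lists. The region 252 kb into COL4A6, touching an exon, differed by -0.67 ± 0.15 kb (SE, limma, adjusted p = 0.0079). For COL6A2, the region at -37.3 kb from the gene start carried the largest difference of all regions in collagen windows, 2.30 ± 0.29 kb (SE, limma, adjusted p = 0.00027). That region (chr21:46058251-46063388) measured 1787 and 1997 bp in untreated and 3588 and 4757 bp in TWEAK-treated MDA-MB-231 control lists, and 2099 and 1950 against 4717 and 3985 bp in Hs578T control lists. Its length in Fn14 KO lists was 1684 to 2903 bp, below all TWEAK-treated control lists.

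In COL4A2, a second intron region 75.4 kb into the gene was longer, by 1.68 ± 0.21 kb (SE, limma, adjusted p = 0.00027), while regions 114 kb into the gene and in the downstream flank, within RAB20, were shorter. COL27A1 had 5 of 9 regions longer, of which the largest differences were 133 kb into the gene, at 1.27 ± 0.19 kb (SE, limma, adjusted p = 0.00071), and 69.0 kb into the gene, at 1.18 ± 0.37 kb (SE, limma, adjusted p = 0.046). At COL17A1, 3 of 7 regions were longer, all upstream. The region at -4.62 kb from the gene start measured 1147 and 1197 bp in TWEAK-treated MDA-MB-231 control lists and 396 bp in 1 untreated Fn14 KO list of that line, and it was without a peak in the other lists.

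Decreases were spread over more regions. COL18A1 had 7 of 14 regions shorter and none longer. The largest difference was in the intron region 12.2 kb into the gene, at -1.51 ± 0.21 kb (SE, limma, adjusted p = 0.00046). This region (chr21:45415927-45418900) measured 1802 and 1804 bp in untreated and 0 and 0 bp in TWEAK-treated MDA-MB-231 control lists, and 1457 and 1809 against 217 and 620 bp in Hs578T control lists. Those 65.7 and 27.4 kb into the gene differed by -1.05 and -0.98 kb, and that at -39.7 kb by -0.96 kb. Of these 7, 4 also passed for the difference between genotypes. COL5A1 had 4 of 9 regions shorter, all upstream at -49.8 to -33.9 kb from the gene start, and the farthest differed by -1.37 ± 0.16 kb (SE, limma, adjusted p = 0.00013). The region at its start did not pass. COL1A1 was shorter at its start, with a difference of -0.79 ± 0.12 kb (SE, limma, adjusted p = 0.00087), and at -8.85 kb from it, with -1.08 ± 0.29 kb (SE, limma, adjusted p = 0.022). A shorter region centred at -2.21 kb from the COL8A1 start differed by -1.37 ± 0.33 kb (SE, limma, adjusted p = 0.013). Within 2 kb of that start, coverage differed by -0.12 kb only and did not pass (limma, adjusted p = 0.64). A shorter region upstream of COL6A3 differed by -1.28 ± 0.37 kb (SE, limma, adjusted p = 0.032). The windows of COL8A1 and COL6A3 did not pass as a whole.

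**Figure D5:**
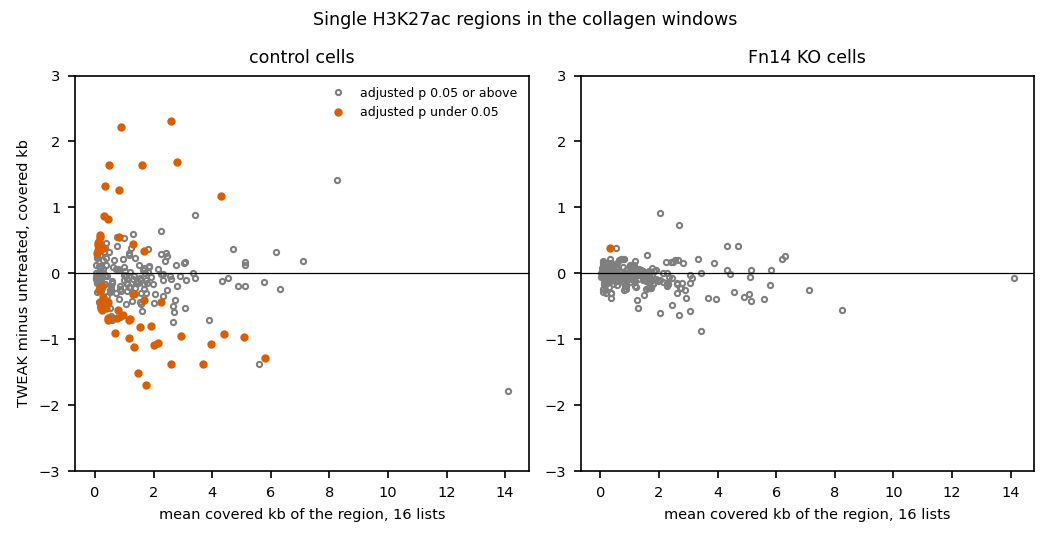
TWEAK minus untreated difference in covered kb (y axis) of the 234 consensus regions in collagen windows against their mean covered kb over 16 lists (x axis), in control cells (left) and Fn14 KO cells (right); filled orange points had an adjusted p under 0.05. In control cells points spread from -1.78 to 2.30 kb and in Fn14 KO cells from -0.872 to 0.910 kb, where 1 point is filled.

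The central 300 bases of the longer and shorter regions were searched for the same motifs. TGANTCA was present in 9 of 22 regions that were longer with TWEAK (40.9%) and in 4 of 35 that were shorter (11.4%), beside 25.2% of all regions in collagen windows. GGANTTTCC was present in 2 of 22 (9.09%) and 2 of 35 (5.71%). These are counts of letters in few regions, and no difference between them was tested. The shares among all longer and all shorter consensus regions were not counted. Whether these counts are particular to collagen windows is therefore not known.

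MDA-MB-231 and Hs578T were compared over all genotypes and treatments. The lists covered 64.2 to 82.9 Mb in MDA-MB-231 and 77.8 to 88.9 Mb in Hs578T, and the median difference of all gene windows was -0.16 (MDA-MB-231 minus Hs578T), beside -0.17 for the collagen windows. Of 40 collagen windows, 3 were higher in MDA-MB-231 and 20 lower, where 3.44% of all genes were higher and 46.7% lower. After scaling to equal total covered length, 6 were higher and 9 lower, where 24.0% and 16.5% of all genes were. Unscaled values are given here, to be read against the median of -0.16. The 10 windows with the smallest p kept their direction and passed after scaling.

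The largest difference was at COL28A1, a collagen with von Willebrand factor domains, where the COL28A1 window ranged from 1.804 to 3.07 kb with a median of 2.54 kb in MDA-MB-231 and from 4.76 to 7.23 kb with a median of 5.94 kb in Hs578T. It was the only collagen window whose lists did not overlap between the lines, and the difference was -0.97 ± 0.08 (SE, limma, adjusted p = 1.1e-06), or -0.79 after scaling. The region of this window at -28.5 kb from the COL28A1 start, within MIOS, was the only one of the 234 with a peak in all lists of one line, Hs578T, and none of the other. At COL13A1, the COL13A1 window ranged from 18.8 to 27.6 kb with a median of 24.4 kb in MDA-MB-231 and from 25.8 to 45.7 kb with a median of 37.6 kb in Hs578T, a difference of -0.54 ± 0.07 (SE, limma, adjusted p = 5.9e-05). The basement membrane genes COL4A5 and COL4A6 went the other way. For COL4A6, the COL4A6 window ranged from 2.34 to 6.68 kb with a median of 3.39 kb in MDA-MB-231 and from 1.77 to 4.34 kb with a median of 1.94 kb in Hs578T, a difference of 0.41 ± 0.08 (SE, limma, adjusted p = 0.00093). For COL4A5, the COL4A5 window ranged from 0.311 to 3.79 kb with a median of 1.14 kb in MDA-MB-231 and from 0 to 2.65 kb with a median of 0 kb in Hs578T, with 0.65 ± 0.13 (SE, limma, adjusted p = 0.0011). All of these apart from COL28A1 overlapped between lines.

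COL11A1, which responded to TWEAK, was also lower in MDA-MB-231. Here the COL11A1 window ranged from 0.902 to 4.495 kb with a median of 0.981 kb in MDA-MB-231 and from 1.12 to 7.14 kb with a median of 1.57 kb in Hs578T, and the difference was -0.45 ± 0.08 (SE, limma, adjusted p = 0.00056). Among the rest of the 10, the COL23A1 window ranged from 4.29 to 8.17 kb with a median of 5.79 kb in MDA-MB-231 and from 7.31 to 10.7 kb with a median of 8.64 kb in Hs578T, a difference of -0.55 ± 0.11 (SE, limma, adjusted p = 0.0012). COL10A1, COL9A2, COL9A3 and COL24A1 differed by -0.51, -0.36, -0.34 and -0.39. For COL10A1, the COL10A1 window ranged from 2.26 to 5.76 kb with a median of 3.66 kb in MDA-MB-231 and from 3.001 to 7.01 kb with a median of 6.12 kb in Hs578T. For COL9A2, the COL9A2 window ranged from 3.21 to 6.73 kb with a median of 3.58 kb in MDA-MB-231 and from 4.08 to 6.21 kb with a median of 5.72 kb in Hs578T. Both overlapped between lines. As for the FACIT gene COL9A3, the COL9A3 window ranged from 10.2 to 14.6 kb with a median of 11.8 kb in MDA-MB-231 and from 12.7 to 17.3 kb with a median of 16.04 kb in Hs578T. Last, the COL24A1 window ranged from 3.06 to 6.59 kb with a median of 4.34 kb in MDA-MB-231 and from 5.24 to 6.91 kb with a median of 6.06 kb in Hs578T. The lists of these genes overlapped between lines as well. At promoters, COL7A1 and COL9A2 were covered over a shorter length in MDA-MB-231, with differences of -0.41 and -0.41 kb (limma, adjusted p = 0.018 and 0.027), where 14.2% of all promoters were lower. The count of 2 became 0 with the replicate number as a block and 4 after trimming the lists to equal peak number.

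Genes that modify, process or bind collagen were described in the same way, from a list of 45 genes of which every window was tested. With TWEAK in control cells 2 rose and 8 fell, 0 passed in Fn14 KO cells, and the difference between genotypes passed at 5, all lower. Of all genes, 6.84% rose, 11.1% fell and 4.93% differed between genotypes. After scaling to equal total covered length, 8 rose and 11 fell, where 13.9% and 15.7% of all genes did, and the difference between genotypes passed at 10, of which 2 were higher and 8 lower, against 14.98% of all genes. Of 21 genes for chain modification and folding, TMEM38B, a channel of the endoplasmic reticulum, rose by 0.59 (limma, adjusted p = 0.012), and FKBP10 and P3H4, which act on procollagen there, fell by 0.40 and 0.34. Among 13 processing and cross-linking genes ADAMTS14 and TLL1, which cleave procollagen ends, fell. The untreated and TWEAK-treated pairs of ADAMTS14 were 4.53 and 5.35 against 1.43 and 1.24 kb in MDA-MB-231 control cells, 3.27 and 1.199 against 0.852 and 1.04 kb in Hs578T control cells. Its Hs578T control pairs lay much closer than those of MDA-MB-231, and the control cell difference over both lines was -1.001 (limma, adjusted p = 0.0019). Its Fn14 KO pairs were 4.957 and 3.382 against 4.678 and 3.416 kb in MDA-MB-231 and 1.221 and 1.145 against 1.999 and 1.21 kb in Hs578T. None of the lysyl oxidase windows passed.

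Of 11 receptor genes, 1 rose and 4 fell. ITGA2, the alpha chain of a collagen-binding integrin, held 22.9 and 29.6 against 35.9 and 38.4 kb in MDA-MB-231 control cells, 31.5 and 33.6 against 38.5 and 48.95 kb in Hs578T control cells, a difference of 0.45 (limma, adjusted p = 0.0072). Its Fn14 KO lists held 35.8 and 29.4 against 34.6 and 32.6 kb in MDA-MB-231 and 34.9 and 38.2 against 34.1 and 40.1 kb in Hs578T. LAIR1, an inhibitory collagen receptor of immune cells, held 1.05 and 1.02 against 0 and 0 kb in MDA-MB-231 control cells, 0.819 and 0.675 against 0 and 0 kb in Hs578T control cells, that is no peak in any TWEAK-treated control list. The LAIR1 window held 1.013 and 0.613 against 1.429 and 0.63 kb in MDA-MB-231 and 0.898 and 0.692 against 1.018 and 0.84 kb in Hs578T Fn14 KO cells. Its difference, whose size depends on the 1 kb added before the log, was -0.91 (limma, adjusted p = 0.00026). MRC2, an endocytic collagen receptor, held 10.1 and 11.7 against 7.33 and 5.62 kb in MDA-MB-231 control cells, 10.2 and 9.98 against 7.36 and 7.76 kb in Hs578T control cells, with -0.53 (limma, adjusted p = 0.0011). In Fn14 KO cells MRC2 held 8.095 and 7.026 against 8.512 and 7.409 kb in MDA-MB-231 and 10.6 and 10.8 against 10.1 and 9.88 kb in Hs578T. DDR1, a receptor tyrosine kinase for collagen, and ADGRG1, an adhesion receptor that binds collagen III, fell by 0.43 and 0.42. The difference between genotypes passed at LAIR1, MRC2, DDR1, ADAMTS14 and TLL1. Between lines, 1 window was higher in MDA-MB-231 (ADAMTS14, 0.85) and 22 were lower, where 3.44% and 46.7% of all genes were. After scaling, 8 were higher and 4 lower, against 24.0% and 16.5%. Promoters of these genes carried a peak in every list at 30 of 45 and in none at 9, against 52.7% and 37.8% of all genes.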

How the data were processed

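H3K27ac ChIP-seq had been performed on 16 samples, and the deposited file of each sample is a list of called peaks without reads, so that sequencing depth is unknown. Per the study's methods, the authors trimmed adaptors with Trimmomatic, mapped reads to hg38 with Bowtie2, called peaks per sample with MACS2 after subtracting input, and removed blacklisted regions with bedtools; versions are not given in the sources used here. The deposited columns hold peak start and end in bp, a score, a fold enrichment (a ratio over local background) and −log10 p and −log10 q values, all made by the authors' peak caller. DiffBind, which the authors used, needs reads and was not run.

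Covered length was counted per gene from GENCODE 44, with windows of 50 kb on each side of the gene body and promoters of 2 kb on each side of the start. Group means of the 8 groups were fitted with limma 3.58.1 (R 4.3.3), with a mean-variance trend, over all genes with a peak in at least 2 lists, and p-values were adjusted by Benjamini-Hochberg with a threshold of 0.05. Windows were fitted on log2(covered kb + 1 kb), promoters and single regions in kb. Python 3.11.15 was used for the rest. On simulated data with 200 changed genes, 61.0% of window shifts of 0.5 and 95.5% of those of 1 on the log2 scale were recovered for TWEAK in control cells, and 81.0% of promoter shifts of 1 kb.

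Members and lists were chosen with earlier results of these data known. Genes named with values were members called in a comparison (up to 10 with the smallest p each), the 5 longest windows per line, and members with a region gained or lost in control cells of both lines. The alternatives were other windows, filters, pseudocounts, scalings and peak thresholds, a replicate block, and leaving out each list.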

Additional observations from a re-analysis of the deposited data

Results flagged for a closer look

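The TWEAK effect differed between control and Fn14 KO cells at 6 collagen windows by limma's interaction test, on the log2(covered kb + 1 kb) scale. It was larger in control cells by 1.24 at COL11A1, 1.39 at COL4A5 and 0.81 at COL4A6. It was lower in control cells at COL18A1 with -0.56, at COL10A1 with -0.81 and at COL14A1 with -0.78. All 4 TWEAK-treated control lists lay above the 4 untreated control lists at the first 3 genes, and COL4A5 and COL4A6 share the region with their largest TWEAK difference. What these differences rest on was not tested.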

How the results depend on the processing

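Counts of collagen windows passing limma moved by over 1.5 times as follows. For MDA-MB-231 against Hs578T, 23 became 14 with the gene body alone, 12 with the number of peaks and 15 when scaled to equal total covered length. The scaled fit called 40.5% of all genes by line, against 50.2% unscaled. For TWEAK in control cells, 14 became 8 with the gene body alone and 5 with the number of peaks. For the difference between genotypes, 6 became 0 with the number of peaks and 11 both when scaled and when weighted by fold enrichment. Scaling raised the calls among all genes as well, to 14.98% against 4.93% unscaled, so the rise was not particular to collagen windows. No share of all genes is given here for the weighted counts. For Fn14 KO against control without TWEAK, 0 became 1 with the gene body alone, 1 when scaled and 3 when weighted. Among all genes 3.56% passed here when scaled, against 0.575% unscaled. For TWEAK in MDA-MB-231 control cells, 9 became 5 with 100 kb flanks, 1 with the number of peaks and 14 when scaled. The scaled share of all genes called was 18.4%, compared with 7.09% unscaled. For Hs578T control cells, 4 became 9 in lists trimmed to equal peak number, 0 with the number of peaks, 9 when scaled and 8 when weighted. Here too scaling called more of all genes, 14.2% where 5.44% passed unscaled. For promoters by line, 2 became 1 with 1 kb flanks, 4 with all transcript starts, 4 in trimmed lists, 1 without a filter and 4 at a −log10 q of at least 2. For promoters with TWEAK, 2 became 1 with 1 kb flanks. The number of regions gained in MDA-MB-231 Fn14 KO cells went from 0 to 1 at that −log10 q, 2 in trimmed lists and 2 with 500 bp shared, and in Hs578T Fn14 KO cells from 5 to 2, 2 and 1. Regions lost in MDA-MB-231 Fn14 KO cells went from 2 to 1 in trimmed lists and 0 with 500 bp shared, and in Hs578T Fn14 KO cells from 0 to 1 in trimmed lists. With the gene body alone, the TWEAK difference reversed at COL4A5 (-0.041), COL14A1 (0.12) and COL6A2 (-0.11), and the difference between genotypes at COL4A5 (-0.014) and COL14A1 (0.019). The cause was not tested.

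With 1 list left out, the counts were 21 to 28 for windows by line, 11 to 17 for TWEAK in control cells, 0 for TWEAK in Fn14 KO cells and for the untreated genotypes, 3 to 10 for the difference between genotypes, 2 to 14 in MDA-MB-231, 1 to 10 in Hs578T, 1 to 4 for promoters by line and 1 to 4 for promoters with TWEAK. The promoter count by line was 4 without Hs578T control untreated list 1, and that with TWEAK was 4 without either TWEAK-treated MDA-MB-231 Fn14 KO list. With an arm resting on 1 list, gained regions numbered 11 to 17 and 10 to 11 in MDA-MB-231 and Hs578T control cells and 0 to 6 and 6 to 13 in their Fn14 KO cells, and lost regions 18 to 26, 16 to 19, 3 to 19 and 1 to 4. Where a group was left with 1 list, that list was assumed to vary like the others.

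Replicate numbers did not pair the samples, with correlations of deviations of 0.0882, -0.00368, -0.00362 and 0.105 in the 4 pairs of groups. With the replicate number as a block, 23 windows passed by line, 15 for TWEAK in control cells, 0 in Fn14 KO cells, 6 for the difference between genotypes, 0 for the untreated genotypes, 9 in MDA-MB-231 and 5 in Hs578T, and promoters passed at 0 by line and 1 with TWEAK.

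Covered length depends on where the caller ends a peak, and the number of reads behind it is unknown, so a difference in length need not be one in signal. Peaks were assigned by distance, not by target gene.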
